A study of Mus musculus with 3 samples.

Results

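Endothelins are short vasoactive peptides that act on a pair of G-protein-coupled receptors. Each is made as a longer precursor, cut by furin-type proteases to an inactive big endothelin and then cut once more by an endothelin-converting enzyme. In neural crest development the type B receptor, Ednrb, and its ligand endothelin-3 are needed for the spread of enteric neuron precursors and melanocytes. In the adult, Ednrb is found on astrocytes, peripheral glia and endothelium, and the type A receptor, Ednra, on the smooth muscle and pericytes of vessel walls.

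The endothelin system was described here through 7 genes picked by name from the deposited table of 52550 genes: the receptors Ednrb and Ednra, the ligands Edn1, Edn2 and Edn3, and the converting enzymes Ece1 and Ece2. They were picked with their levels known, so these levels are a description without a test. All libraries came from male LepRCRE::Ai32 mice aged 10 weeks, whose superior cervical ganglia, sympathetic ganglia of the neck, were sorted for live cells with the reporter. Cre in these mice is driven from the leptin receptor gene, and Ai32 is a Cre-dependent channelrhodopsin fused to a yellow fluorescent protein, which stays on in any cell that once made Cre. The protocol text calls the mice LepReYFP. The labels give 3 biological replicates of 1 group, with no control group, and how many animals or cells were used for each library was not given in the sources used here. Values are TPM, in which reads are divided by gene length and scaled to the same sum in every library.

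From 8187852 to 8703626 reads on genes were recovered per library, as described under the processing. At least 1 read in at least 1 library was found for 27568 genes, and these are the genes with a read below. Lepr, at which Cre sits, had 363, 32.1 and 54.0 TPM in replicates 1, 2 and 3. Perineurial cells are the name the series title gives to the sorted cells. Of 12 perineurial markers, 4 lay above 1 TPM (limma, adjusted p under 0.05), 2 below, and Krt19 had no read, while 11 of 12 glial markers lay above. Of all genes with a read, 16.4% lay above and 20% below. The perineurial list was led by the tight junction gene Cldn1 (216, 246 and 220 TPM) and the Wnt inhibitor Sfrp5 (88.4, 107 and 78.3 TPM). Without replicate 3 these counts above 1 TPM were 3 and 7. Without replicate 1 or without replicate 2, limma called 0 of the 27568 genes in either direction (4638 and 4439 above and 7916 and 8251 below at an unadjusted p under 0.05), so all such counts in the text were then 0. The glial list summed to between 27952 and 33020 TPM, the fibroblast list to between 4522 and 6656 and the perineurial list to between 466 and 710. Sums over different genes do not measure the share of a cell type, and the identity of the cells was not tested. They are called LepR+ sorted cells here, after their labels.

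The bases that code for the mature ligand peptides are shown for comparison, 63 bases for 21 amino acids each. They are from the GENCODE M21 transcripts (GRCm38), in the second exon and on the forward strand of each gene. These are a small part of the exon bases of Edn1, Edn2 and Edn3 (2139, 1462 and 4113). Whether any read was shared between the ligand genes was not tested. Capitals mark the 18 positions at which the ligand genes are not all alike.
Edn1: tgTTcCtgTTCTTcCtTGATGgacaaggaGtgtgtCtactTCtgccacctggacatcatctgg
Edn2: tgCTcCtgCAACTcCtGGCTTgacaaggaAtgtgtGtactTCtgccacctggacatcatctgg
Edn3: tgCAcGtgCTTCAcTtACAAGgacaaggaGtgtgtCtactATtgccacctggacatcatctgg
These lie at chr13:42303649-42303711, chr4:120161951-120162013 and chr2:174761749-174761811. Edn2 matched Edn1 at 53 of the 63 bases (84.1%) and Edn3 matched it at 50 (79.4%). The differing positions crowd the first part of the peptide, while the last stretch, which ends in the tryptophan codon at which the converting enzymes cut, was the same in all.

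Ednrb (ENSMUSG00000022122.14, chromosome 14, 103814625 to 103844402 of GRCm38, reverse strand), the type B receptor that binds all the endothelins alike, was the most abundant of the 7. It had 2290, 1048 and 1522 TPM in replicates 1, 2 and 3, from 23617, 10831 and 14706 reads. Its mean was 1620 ± 626 TPM (SD, n = 3), and every library lay above 1000 TPM, a level that the mean of 67 genes in the whole table reached. By mean level it was 35th of the 52550 genes, and in single libraries it ranked 26, 66 and 45. Replicate 1 was 2.18 times replicate 2, and the counting intervals of the libraries (95%, exact Poisson, counting error only) did not overlap: 2261 to 2319, 1029 to 1068 and 1498 to 1547 TPM. The coefficient of variation was 38.7%, against a median of 21.2% over those 67 genes.

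The 250 bases before the RefSeq start of Ednrb (GRCm38.p6, chr14:103843702-103843951, reverse strand) are shown because this member had the highest RNA level. The GENCODE M21 gene, whose span is given above, starts at 103844402 on this strand. The window thus lies inside that span and is upstream of the RefSeq start only.
Ednrb: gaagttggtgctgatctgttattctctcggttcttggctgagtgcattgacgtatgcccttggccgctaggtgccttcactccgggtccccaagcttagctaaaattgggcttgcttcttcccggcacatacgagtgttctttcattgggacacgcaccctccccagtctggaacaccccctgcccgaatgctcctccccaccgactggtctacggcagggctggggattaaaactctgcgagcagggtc
This window was searched on both strands for 7 short strings, none of which lies within another, and held none of them. For SOX factors these were ACAAAG, held by 16.5% of all 32851 promoter windows of the same length, and the variant ACAATG, held by 10.7%. The GC box GGGCGG was in 32.7% and the TATA box TATAAA in 12.4% of all windows. The E-box CATGTG was in 12.3%, the AP-1 string TGACTCA in 4.46% and the GATA factor string AGATAA in 9.99%. A promoter was listed for all 7 genes, and 5 of the 7 held none of the strings, as did 28.5% of all the windows. The exceptions were Ece1, with GGGCGG or ACAATG in 3 of its 4 listed windows, and Ece2, with 1 GGGCGG.

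Ednra (ENSMUSG00000031616.7, chromosome 8, 77663031 to 77724464, reverse strand), the type A receptor of vascular smooth muscle, had 2.23, 22.9 and 0.248 TPM, from 31, 321 and 3 reads. Replicate 2 was high and replicate 3 close to nothing, a range of 92.4-fold, with counting intervals of 1.51 to 3.14, 20.5 to 25.6 and 0.0472 to 0.669 TPM. Without replicate 2 its mean fell from 8.47 to 1.24 TPM. Ednrb was thus the more abundant receptor in each of the 3 libraries. It was 1025 times Ednra in replicate 1 and 45.7 times in replicate 2. In replicate 3 the ratio was 6138, with a counting interval from 2275 to 32244 set by the 3 reads of Ednra. On the log2 scale the ratio was 9.37 ± 3.58 (SD, n = 3). Ednrb made up 99.9%, 97.9% and 99.98% of the summed receptor TPM.

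**Figure D1:**
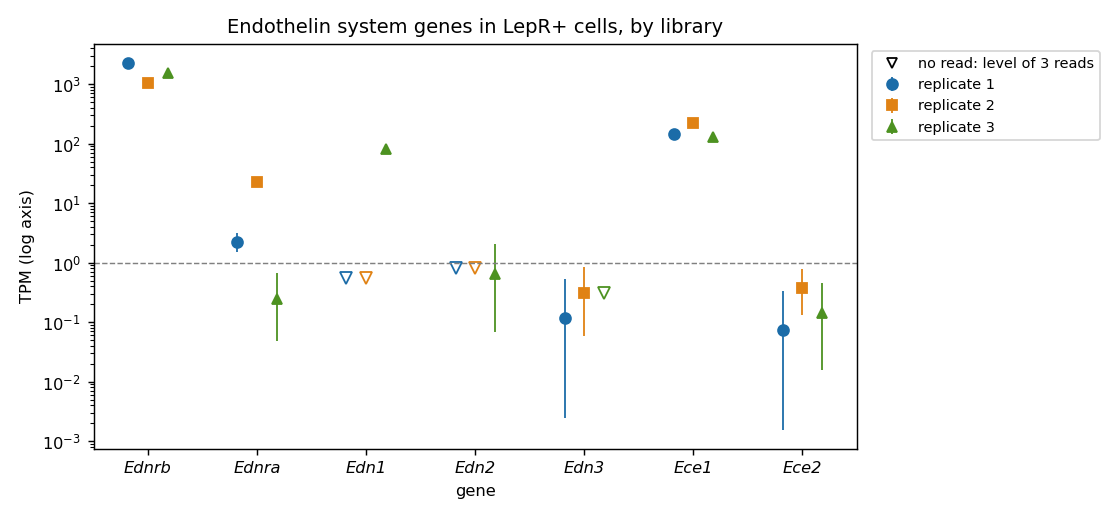
TPM (log axis) of each of the 7 endothelin system genes in each library; bars are 95% Poisson counting intervals, open triangles stand at the level of 3 reads where a library had none, and the dashed line marks 1 TPM. Ednrb and Ece1 lie above 100 TPM in all 3 libraries, Ednra and Edn1 are spread over a wide range, and Edn2, Edn3 and Ece2 lie below 1 TPM in every library.

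Among the ligands, Edn1 (ENSMUSG00000021367.8, chromosome 13, 42301476 to 42307990), the constrictor peptide best known from endothelium, was read in 1 library alone. It had no read in replicates 1 and 2 and 421 reads in replicate 3, which is 82.3 TPM with a counting interval of 74.6 to 90.5. In replicates 1 and 2, 3 reads would have been 0.549 and 0.548 TPM. In replicate 3 Edn1 ranked 2257 of the 52550 genes. Such a pattern, at least 100 reads in 1 library and none in the others, was shown by 439 genes, 1.59% of those with a read, and 93 of them had their reads in replicate 3.

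Edn2 (ENSMUSG00000028635.7, chromosome 4, 120161206 to 120167360), the least studied of the ligands, had 0, 0 and 2 reads. In the last library this was 0.643 TPM, with a counting interval from 0.0692 to 2.06. Edn3 (ENSMUSG00000027524.9, chromosome 2, 174760619 to 174784042), the partner of Ednrb in neural crest development, had 1, 3 and 0 reads, that is 0.119 and 0.309 TPM in replicates 1 and 2, with counting intervals up to 0.530 and 0.833 TPM. For Edn3, 3 reads would be 0.305 TPM in replicate 3. All ligands together had 1, 3 and 423 reads, so apart from Edn1 in replicate 3 the ligand level lay at the limit of what this depth can show. Expression below that limit was not detectable, which does not show it to be absent.

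Ece1 (ENSMUSG00000057530.14, chromosome 4, 137862237 to 137965229), the membrane protease that makes active endothelin from its big precursor, had 145, 222 and 129 TPM, from 1958, 3005 and 1633 reads. The mean was 165 ± 49.6 TPM (SD, n = 3), and replicate 2 was the highest, 1.72 times replicate 3. The coefficient of variation, 30.1%, was below the median of 46.8% over the 1675 genes whose mean reached 100 TPM. Its order of libraries differed from that of Ednrb, which was lowest in replicate 2, so the ratio of Ednrb to Ece1 went from 4.73 in replicate 2 to 11.8 in replicate 3 and 15.8 in replicate 1.

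Ece2 (ENSMUSG00000022842.16, chromosome 16, 20629828 to 20646485), the related enzyme of neurons and endocrine cells that works at acid pH, had 1, 6 and 2 reads, or 0.0747, 0.373 and 0.144 TPM. In GENCODE M21, 57.5% of the exon bases of Ece2 also lie in exons of Gm49333, a protein-coding gene on the same strand that runs through it. Gm49333 is not among the genes of the deposited table, and the sources used here do not say how reads in such bases were counted. For the other members the overlap was small: 1.66% of Ednra exon bases were shared with an opposite-strand transcript that had 3, 1 and 0 reads, and 1.64% of those of Edn1 with an antisense gene that is not in the table either.

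The order of the levels was thus clear at the top and not below. The lowest Ednrb library lay above the highest of Ece1, and the lowest of Ece1 above the highest of any other member. Ednra and Edn1 overlapped each other and the rest, and Edn2, Edn3 and Ece2 could not be ordered. The 7 genes together took 0.244%, 0.129% and 0.173% of the library TPM, of which Ednrb was 94.0%, 81.0% and 87.8%. A read in every library was found for 4 of the 7 (Ednrb, Ednra, Ece1 and Ece2), against 41% of the genes with a read. At least 1 TPM and a read in every library was reached by 2, Ednrb and Ece1, against 23.6%. As the genes were picked with these levels known, nothing is read from those counts.

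**Figure D2:**
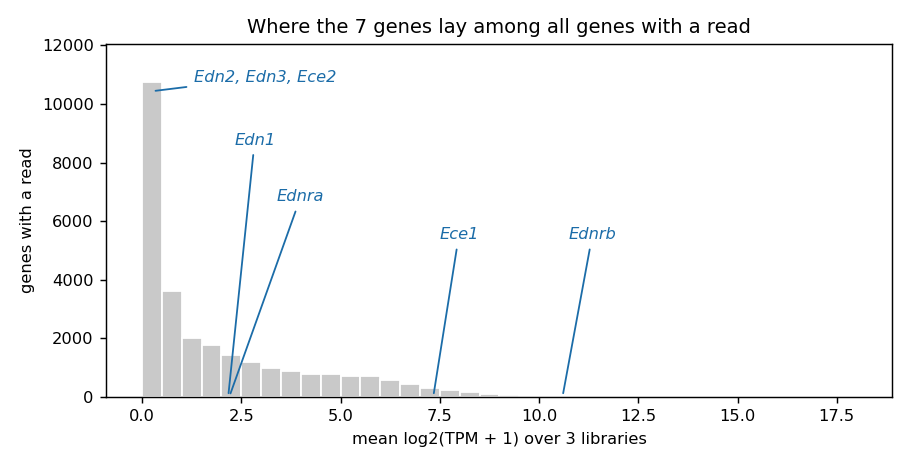
Histogram of the mean log2(TPM + 1) over 3 libraries for the 27568 genes with a read (bars, 0.5 wide), with the means of the 7 genes marked. Ednrb, at 10.59, lies in the thin upper tail and Ece1, at 7.33, in the upper part, Ednra at 2.20 and Edn1 at 2.17 lie near each other, and Edn2, Edn3 and Ece2 fall in the lowest and fullest bar.

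Differences between libraries were wide for many genes. Of the 4 members with at least 100 reads in a library, 2 (Ednra and Edn1) differed at least 10-fold between the highest and the lowest library. Over all 9740 genes with that many reads, 54.2% did. Across the genes with a read, the libraries were correlated at r from 0.683 to 0.685 (log2(TPM + 1), a description, since genes are not independent).

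Markers of vessel cells, where Ednra and Edn1 are usually found, were set beside these values. Of 12 mural markers, 5 lay above 1 TPM, 2 lay below, and Tagln and Cnn1, genes of contractile smooth muscle, had no read. For these and for the endothelial counts, the shares over all genes with a read were 16.4% above and 20% below. Without replicate 3, 2 mural markers were called above and 1 below. The summed mural level was 499.6, 356 and 135 TPM, led by the pericyte gene Rgs5 (225, 124 and 33.8 TPM) and Mcam (33.8, 150.1 and 45.3 TPM). It was lowest in replicate 3, as Ednra was, and highest in replicate 1, where Ednra had 2.23 TPM. Only 2 of the 10 mural markers with a read were highest in replicate 2. Of 12 endothelial markers, 3 lay above 1 TPM and 0 below (limma, also 0 below unadjusted). A fit with a mean-variance trend called 5 above and 0 below, and the fit without replicate 3 called 1 above. Emcn, a sialomucin of veins and capillaries, had 237, 134.6 and 146 TPM, and the angiopoietin receptor gene Tek had 45.5, 80.9 and 13.6 TPM. The 12 endothelial markers summed to 334, 470.0 and 327 TPM, a sum that Emcn dominates, and to 96.6, 335 and 181 TPM without Emcn. On neither sum was replicate 3, the library with Edn1 reads, the highest. Most of the 12 endothelial markers, 8, were at their highest in replicate 2, and 1 was in replicate 1. In replicate 3 the other 3 were at their highest, and these were named after their values were seen. They were the VEGF receptor gene Kdr (4.95, 10.7 and 45.6 TPM), the junction gene Cdh5 (1.23, 31.6 and 38.4 TPM) and the adhesion gene Esam (1.40, 7.67 and 15.05 TPM).

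The glial list moved little by comparison. Fabp7, a fatty acid binding protein of glia, had 16339, 13137 and 13012 TPM and Apoe, which carries lipids, 9528, 8061 and 9214 TPM, and the glial sum was highest in replicate 1 and lowest in replicate 2, the order of Ednrb. Without Fabp7 it was highest in replicate 3 (16680, 14815 and 17109 TPM). The fibroblast list, led by the matrix genes Dcn and Lum, summed to between 4522 and 6656 TPM with Pi16 not read. This sum was highest in replicate 3, while 6 of the 9 fibroblast markers with a read were highest in replicate 2. The sympathetic neuron list summed to between 123 and 338 TPM with Npy not read. Its highest gene, the vesicle transporter Slc18a2, had 34.4, 49.1 and 282 TPM, highest in the library with Edn1 reads. Without Slc18a2 the list summed to 89.5, 73.6 and 56.6 TPM, lowest in that library. The macrophage list summed to 1.51, 85.2 and 101 TPM with Aif1 not read, highest in the library with Edn1 reads. Among its 7 markers with a read, 5 were highest in that library. Without Tyrobp the list summed to 1.36, 65.8 and 25.8 TPM, highest in replicate 2. Its leading genes were Tyrobp, with 0, 33 and 120 reads, and Cd68, with 0, 196 and 0 reads. In bulk RNA, fewer cells of a type and less RNA per cell cannot be told apart, and the part of these cells in the endothelin values was not tested.

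**Figure D3:**
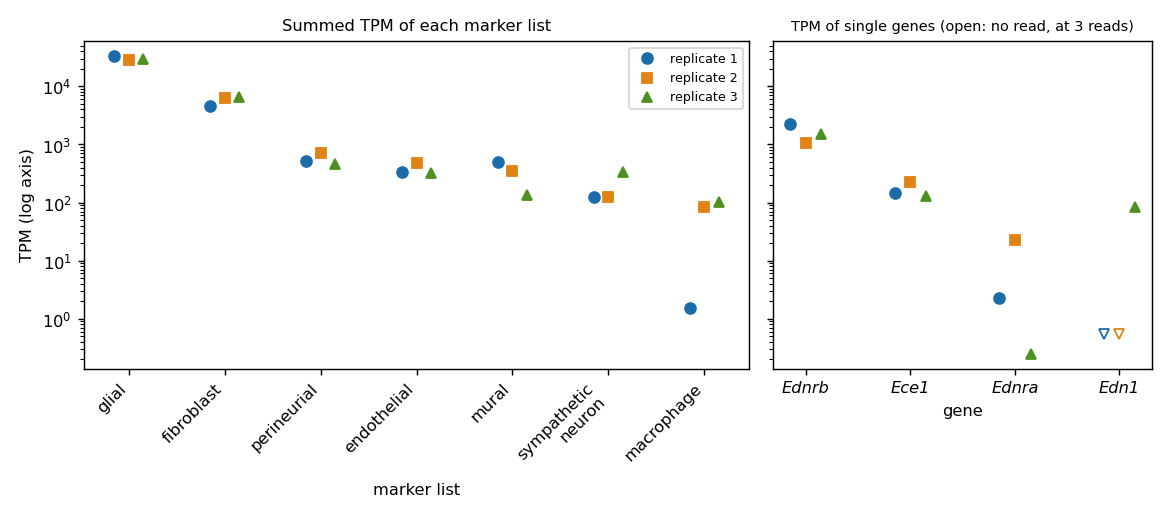
Left, summed TPM (log axis) of each of the 7 marker lists in each library; right, TPM of the 4 members that reached 1 TPM in a library, with open triangles at the level of 3 reads where a library had none. Glial markers are the highest list in all 3 libraries, and the mural sum is highest in replicate 1 while Ednra is highest in replicate 2.

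Genes with values most like those of a member were found by the Euclidean distance of log2(TPM + 1) over the 3 libraries among 17268 other protein-coding genes with a read. Nearest to Ednrb were Rgcc (2348, 1251 and 2079 TPM; distance 0.518), a regulator of the cell cycle, and the RNA-binding protein gene Qk (distance 0.539), followed by the R-spondin receptor Lgr4 (0.707), and the myelin protein gene Pmp22 was also among them (0.769). Nearest to Ece1 were Naa20 (0.0339), Ssr2 (0.0740) and Cat (0.0857). Nearest to Ednra were Tcf7l1 (2.32, 23.7 and 0.240 TPM; distance 0.0614), Cdc34 and Zfp667, and nearest to Edn1 were Siglecf, Slc24a5 and Vmn1r90, at 81.4, 85.0 and 89.5 TPM in replicate 3 and with at most 1 read in each of the others. With 3 libraries this likeness describes the levels and nothing more.

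Beyond the 7 genes, 64 genes around the endothelin system were listed in 5 groups, and 62 of them had a read. The test asks whether the mean log2(TPM + 1) over the 3 libraries lies above or below its value at 1 TPM (limma's moderated test, two-sided, Benjamini-Hochberg adjusted over 27568 genes, threshold 0.05). Of the 62, against the shares of 16.4% above and 20% below over all genes with a read, 17 were above, 14 below and 31 neither. The counts of each group below are to be set against the same shares. The median log2(TPM + 1) of the 62 was 1.74, and that of all genes with a read 0.88. Without replicate 3, 8 were above and 9 below. The count below was 0 when only genes averaging at least 0.5 TPM were tested (limma, also 0 unadjusted), and 0 when mitochondrially encoded genes were left out of the TPM (limma, 15 unadjusted). The 0.5 TPM filter takes out the low genes themselves, so it cannot check the count below.

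The closest relatives of the endothelin receptors were split. Gpr37l1, an orphan receptor of glia, had 213, 168 and 169 TPM, with a mean of 183 ± 26.0 TPM (SD, n = 3), and was the 1 of 5 called above 1 TPM (limma, adjusted p = 0.00364). Ednrb was between 6.24 and 10.7 times as abundant as Gpr37l1 within a library. Gpr37, its sister gene of myelinating glia, had 566 reads in replicate 2 (36.5 TPM) and none in the others (limma, adjusted p = 0.691). Nmbr, Grpr and Brs3, the bombesin-type receptors, were below 1 TPM with at most 2 reads in a library.

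Another 15 proteases were listed around the making and breakdown of endothelins. This list leaves out the members Ece1 and Ece2, and whether each protease acts on endothelins was not tested. Among these 15, limma called 0 above 1 TPM (0 at an unadjusted p under 0.05, 3 with a mean-variance trend) and 7 below. The median log2(TPM + 1) was 0.33. None reached 1 TPM in all 3 libraries. The most abundant were high in 1 or 2 libraries. Ctsa, a lysosomal carboxypeptidase, had 220.2, 0.186 and 30.8 TPM, and Mmp2, a gelatinase, had 0.610, 72.0 and 61.4 TPM. The convertase gene Pcsk7 had 62.4, 39.4 and 0.422 TPM, and its relative Pcsk6 0.245, 0.320 and 85.4 TPM. None of these passed the test (limma, adjusted p from 0.177 to 0.551).

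Of 22 genes for G proteins, phospholipase C, IP3 receptors and protein kinase C, the relay below the receptors, 11 were above 1 TPM (3 without replicate 3) and 2 below, with a median log2(TPM + 1) of 4.52. Gnb1, a G protein beta subunit, led with 465, 538 and 445 TPM. Gnai3 and Gnai1, alpha subunits that inhibit adenylyl cyclase, had means of 231 ± 142 and 218 ± 50.6 TPM (SD, n = 3). Gnaq, which couples endothelin receptors to phospholipase C, had 98.2, 222 and 119 TPM (limma, adjusted p = 0.00571).

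Of 11 genes that switch off G-protein-coupled receptors, 1 was above 1 TPM and 0 below (limma, also 0 below unadjusted and 0 with a mean-variance trend), and the median log2(TPM + 1) was 1.23. The 1 was Rgs5, which is also a pericyte marker (limma, adjusted p = 0.0265). The receptor kinase gene Grk6 had 0.303, 20.5 and 37.9 TPM. Arrb1, an arrestin, had 25.4 TPM in replicate 2 and 0.289 and 0.0467 in the others, and Rgs16 had 94 reads in replicate 2 and none elsewhere.

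Of 11 genes that act with Ednrb in neural crest disorders such as Hirschsprung disease, 4 were above 1 TPM, 2 below, and Gdnf and Nrtn had no read. Without replicate 3 limma called 2 above and 0 below (2 below unadjusted). Zeb2, a zinc finger factor, had 159, 179 and 173 TPM, the narrowest spread of the 4 (170.4 ± 10.6 TPM, SD, n = 3). Sox10, a neural crest and glial factor known to drive Ednrb in enteric precursors, had 26.7, 165 and 51.6 TPM (limma, adjusted p = 0.0314). It was highest in replicate 2, where Ednrb was lowest, and whether the levels of these genes are related was not tested. The adhesion gene L1cam had 57.3, 52.3 and 18.8 TPM.

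**Figure D4:**
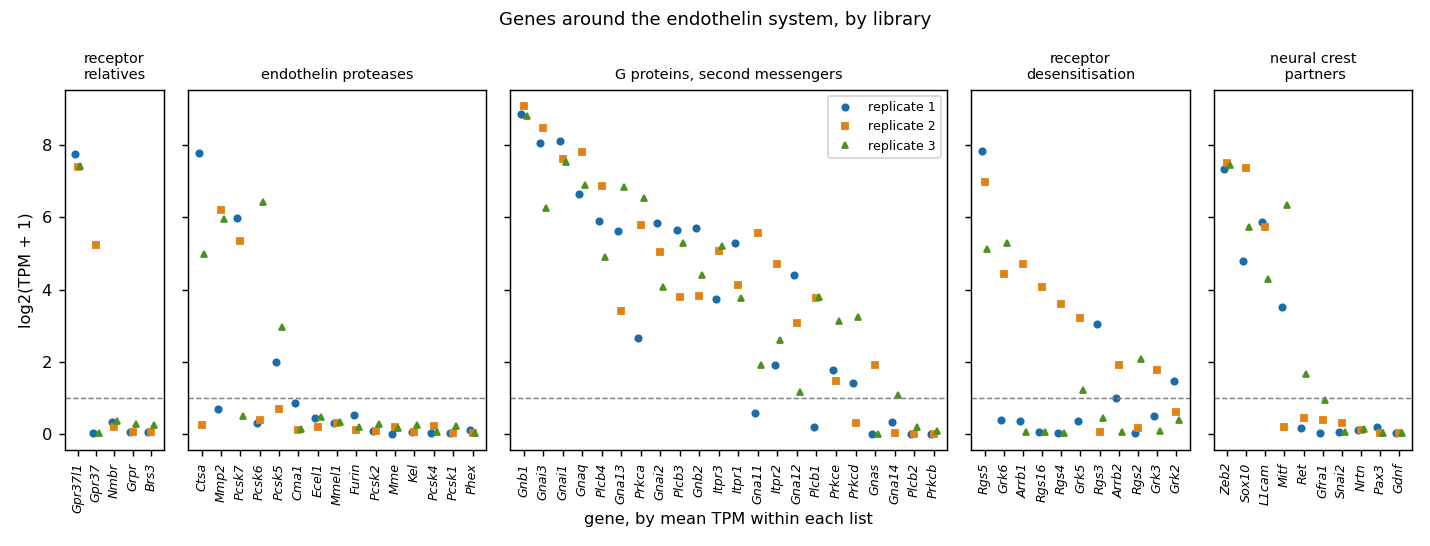
log2(TPM + 1) of the listed genes that are reported here in each library, in 5 groups ordered by mean TPM, with the dashed line at 1 TPM. Gpr37l1, Gnb1 and Zeb2 lead their groups with close libraries, whereas Gpr37, Ctsa, Pcsk6 and Arrb1 are high in 1 or 2 libraries only.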

How the data were processed

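RNA was measured in 3 Smart-Seq2 libraries of sorted cells. The authors deposited log2 TPM per gene, with the same linear sum in each column. The tools were STAR and featureCounts and the build mm10 (GRCm38), per the submitters' processing notes. Versions, annotation, strand setting and the handling of shared reads were not given in the sources used here. From the values, 0.25 read had been added per gene, so with GENCODE M21 exon lengths whole reads could be recovered within 0.02 of a read for 49035 genes. A length of another ID version served for 756, and a length solved from the values, to within 0.004 of a read, for 2753, among them Ednrb and Ece2, whose reads rest on it. For 6 genes none was found. Reads carry no molecular identifiers, so counting intervals cover counting error only.

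Levels are means of TPM. The test over all genes used limma 3.58.1 (R 4.3.3) with a pseudocount of 1 TPM, and it was tested on simulated data. Fold changes on this scale understate low genes. Other work used Python 3.11.15, pandas 2.3.3 and scipy 1.17.1. Alternatives were other pseudocounts (0.5 and 2 TPM), filters, a mean-variance trend, TPM without mitochondrially encoded genes and leaving out each replicate. The members, gene lists and tests were chosen with earlier results of these data known. The text names all 7 members, the 4 most abundant genes of each pathway list, the 2 most abundant of each marker list, and the nearest genes by distance. Some genes that this rule names are not reported here. Genes at or near 0 were named from their values. P-values measure the spread between these libraries.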

Additional observations from a re-analysis of the deposited data

How the results depend on the processing

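Each member's mean stayed within 1 SD of its value with the geometric mean and with TPM rescaled without mitochondrially encoded genes. However, the SDs of Ednra, Edn1 and Edn2 exceed their means and that of Edn3 is close to it. A mean of 3 values cannot move by 1 SD when 1 is left out, so for that only the ranges are given. Without 1 replicate, Ednra ranged from 1.24 to 12.6 TPM, and Edn1 had 0 reads left without replicate 3. Ednrb ranged from 1285 to 1906 TPM, Ece1 from 137 to 183 TPM, and the log2 ratio of Ednrb to Ednra from 7.76 to 11.3. The calls of limma moved more. Without 1 replicate, the number of genes above 1 TPM went from 4532 to between 0 and 2455 (4439 to 4638 at an unadjusted p under 0.05), and below it from 5500 to between 0 and 5142 (7916 to 8251 unadjusted). Among the listed pathway genes, the 17 above became 0 to 8 (12 to 20 unadjusted) and the 14 below became 0 to 9 (16 to 20 unadjusted). With only genes of at least 0.5 TPM on average, or with TPM rescaled without mitochondrially encoded genes, 0 genes in all and 0 pathway genes were below (limma; unadjusted 0 and 0 in the first case, 6778 and 15 in the second). All genes without a filter gave 29850 below, and a mean-variance trend 9912. The 0.5 TPM filter takes out low genes, and the fit without a filter adds the 24982 genes without a read. Those counts below are thus over other sets of genes. The cause of the other shifts was not tested, and some of these fits also differ in the number of samples or genes. No paired analysis was possible because there is only 1 group.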
